A study of Mus musculus with 8 samples.

Results

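Cytosolic ribosomal protein genes encode the proteins that, together with ribosomal RNA, build the small and the large subunit of the ribosome. Each protein is needed in about the same number of copies per subunit, and in mammals nearly every one comes from a single spliced gene with many unspliced copies scattered over the genome. Their mRNAs begin with a run of pyrimidines through which mTORC1 signalling controls their translation, and ribosome output is known to follow growth of the heart muscle.

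The genes were taken as all rows of the raw count table whose symbol follows the Rps or Rpl pattern, with Rplp0 to Rplp2 and Rpsa, leaving out symbols with -ps and rows with fewer than 1000 counts summed over 8 libraries. Of 41128 rows, 93 matched the names and 89 passed the floor. They comprised 80 protein-coding genes under their own name, 32 of the small and 48 of the large subunit, and 9 rows that are copies of such genes. The rows under the floor were Rps4l with 563 counts, Rpl29 with 411, Rpl39l with 10 and Rpl10l with 0. Just inside it stood Rps2 with 1060 counts and Rpl22l1 with 1316. All 89 rows passed the filter on low counts that preceded the test.

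The libraries came from left ventricles of FVB mice aged 8 to 12 weeks. RE1 knockout (KO) mice, with 4 libraries, lack the element RE1 of the super enhancer at Nppa and Nppb, the genes of the atrial and B-type natriuretic peptides. Wild-type (WT) littermates gave 4 libraries. No other allele or treatment is given for either group, and the labels do not state the zygosity, the sex, the number of founders of the line or whether a library holds 1 mouse. P-values therefore measure the spread between libraries. Below, KO mice and WT mice with or without a number stand for libraries.

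Total counts were 16778368 to 37133306 in KO libraries and 20284865 to 34742840 in WT libraries. Raw counts of Nppa were 4 to 14 in KO libraries and 246 to 640 in WT libraries, and those of Nppb were 1 to 16 in KO libraries and 1875 to 4266 in WT libraries. Summed ventricular cardiomyocyte markers reached 49178 to 52871 CPM (counts scaled to library size) in KO libraries and 47889 to 52089 CPM in WT libraries, and lymphocyte markers stayed at or below 1.73 CPM in every library. KO mice 2 and 4 stood apart: mitochondrial rRNA took 6.40% and 6.19% of their counts, against 9.40% and 9.01% in KO mice 1 and 3 and 8.51% to 10.5% in WT mice. The whole profile divided the same way. The mean chi-square per gene between libraries was 3.31 for KO mice 1 and 3 and 3.90 for KO mice 2 and 4. Across these pairs it was 16.2 to 18.6, and between WT libraries 5.34 to 14.4. The KO libraries are therefore not evenly spread replicates, which bears on every p-value and every count of groups without overlap. In bulk tissue, fewer cells of a type and less RNA per cell cannot be told apart.

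Ribosomal protein mRNAs lay slightly higher in KO than in WT ventricles as a group, by about 5%, and 1 of them passed the test. Among the 80 genes, Rps7 was called higher and 0 were called lower at an adjusted p under 0.05 in edgeR's quasi-likelihood test, and 79 were not called. Over all 16551 genes tested, 0.375% were called higher and 0.689% lower. At an unadjusted p under 0.05, 19 of the 80 genes were higher and 0 lower, where 6.11% of all genes tested were higher and 13% differed in either direction.

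The differences were small and alike in size. The median log2 fold change of the 80 genes, KO over WT, was 0.07, a difference of 5.02%, with quartiles of 0.04 and 0.10, against a median of 0.0001 and quartiles of -0.10 and 0.09 over all genes tested. Of the 80, 73 (91.2%) had a positive log2 fold change, where 50% of all genes did, and 78 lay within 0.2 of 0. The small subunit had a median of 0.07 over 32 genes, of which 29 were positive, and the large subunit a median of 0.07 over 48 genes, of which 44 were positive. The 4 KO libraries all lay above the 4 WT libraries for 19 of the 80 genes (23.8%), beside 3.32% of all genes tested, and all lay below for 0, beside 3.83%. The 80 genes also varied less within groups, with a median SD of 0.055 on the log2 CPM scale, against 0.138 over all genes tested. A small shift therefore parts the groups more readily in them. Within groups they also moved together: the median correlation of a gene with the sum of the others was 0.48. These counts describe the genes and carry no test of their own.

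**Figure D1:**
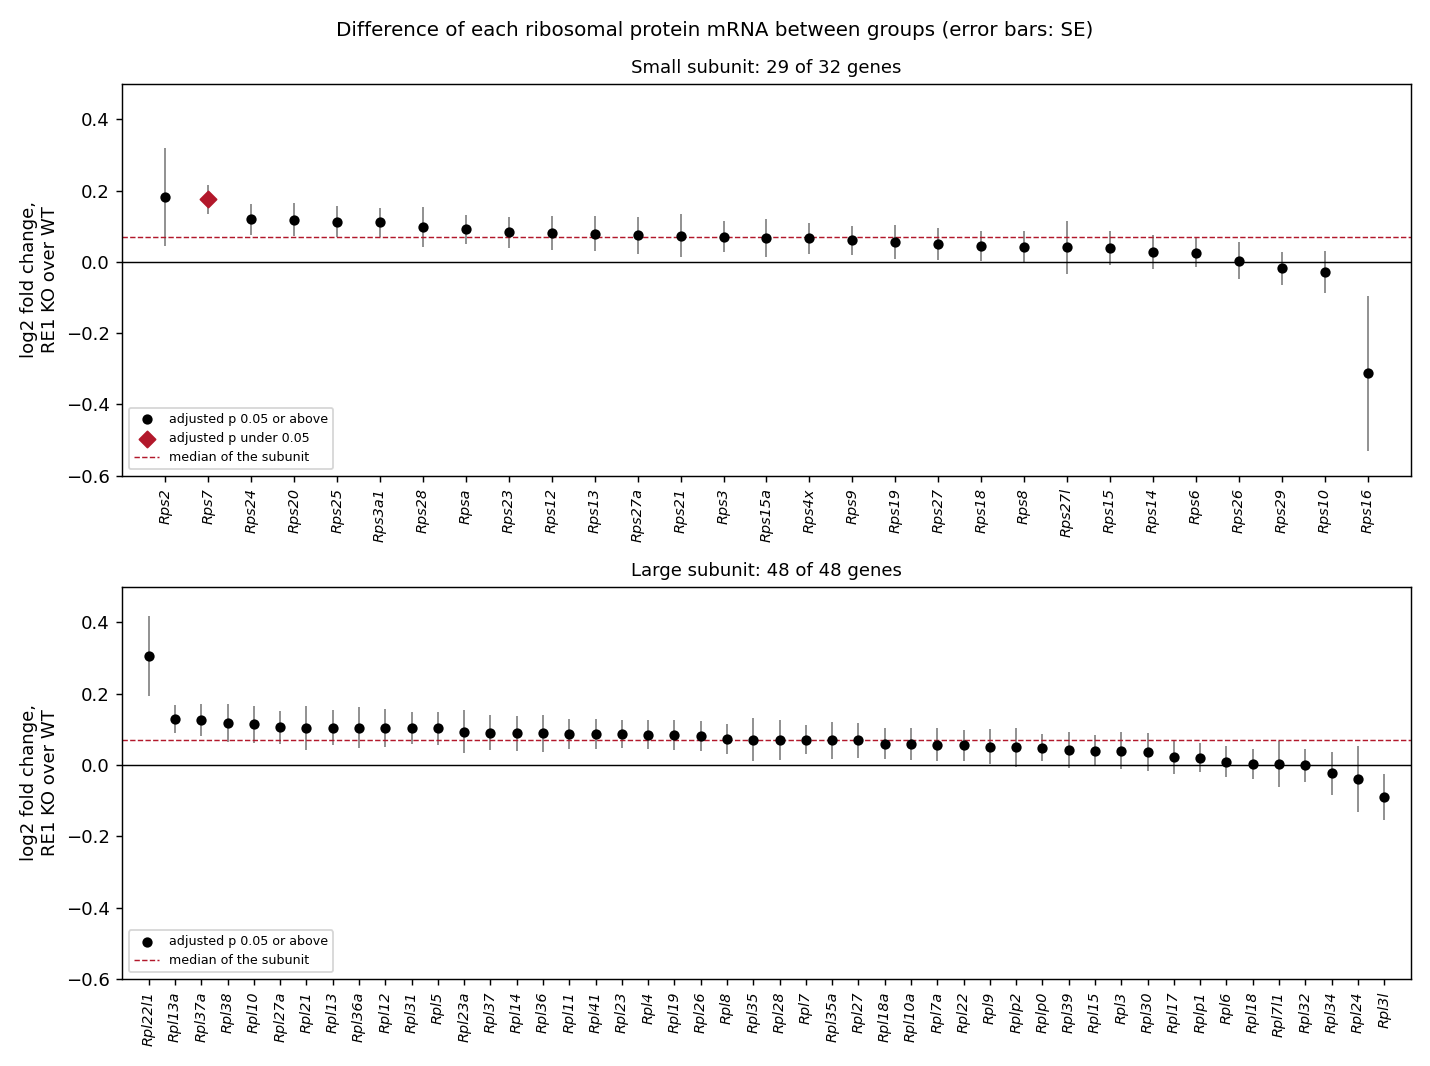
Log2 fold change of 77 of the 80 ribosomal protein genes, RE1 KO over WT, ordered within the small subunit (upper panel, 29 of 32 genes) and the large subunit (lower panel, 48 genes); points are edgeR estimates, bars are standard errors and the dashed line is the median over all genes of the subunit. Most points lie slightly above 0; Rps7, the diamond at 0.17, is the gene called, and Rps16, Rps2 and Rpl22l1 have wide bars.

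**Figure D2:**
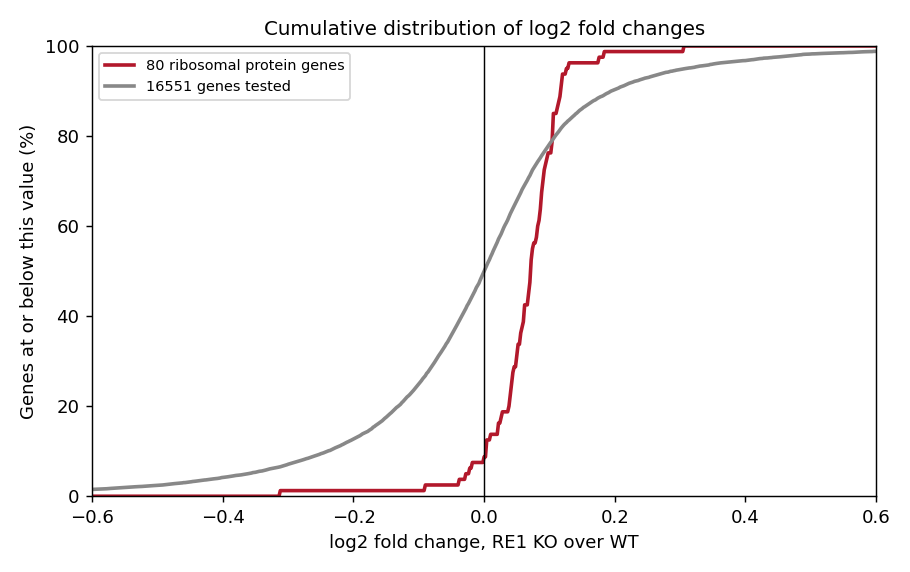
Cumulative share of genes (vertical axis, percent) at or below each log2 fold change, RE1 KO over WT (horizontal axis), for the 80 ribosomal protein genes and the 16551 genes tested; the axis is limited to 0.6 either side of 0. The ribosomal protein curve is steep, with its median at 0.07, while the curve of all genes crosses its median at 0.0001.

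Their mRNAs also took a larger share of each KO library. The 80 genes summed to 0.691%, 0.711%, 0.700% and 0.694% of all gene counts in KO mice 1 to 4, against 0.664%, 0.662%, 0.665% and 0.663% in WT mice 1 to 4. The groups did not overlap, and the means were 0.699% ± 0.0086 in KO and 0.664% ± 0.0013 in WT libraries (SD, n = 4 each). The share depends on what else was sequenced. With mitochondrial, rRNA and small RNA genes left out of the total, it was 1.02%, 1.02%, 1.02% and 0.991% in KO mice against 0.995%, 0.975%, 0.979% and 0.968% in WT mice, and KO mouse 4 fell within the WT range. The ratio of small to large subunit counts was 0.694 to 0.706 in KO libraries and 0.693 to 0.706 in WT libraries, ranges that nearly coincide.

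**Figure D3:**
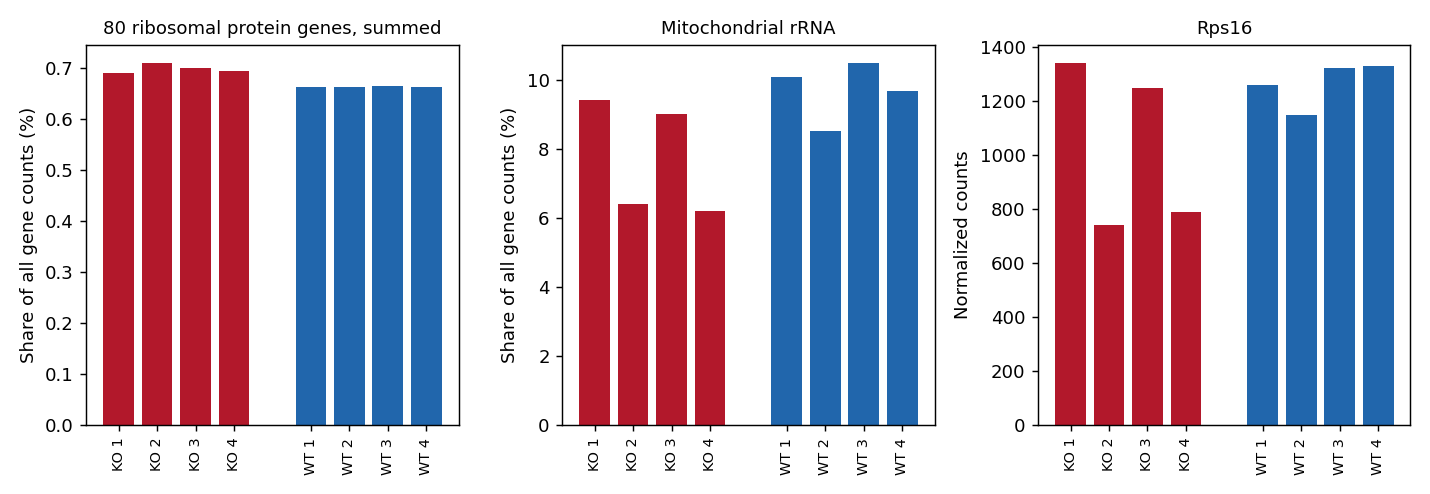
Summed share of all gene counts of the 80 ribosomal protein genes (left, percent), share of mitochondrial rRNA (middle, percent) and normalized counts of Rps16 (right), 1 bar per library with KO mice in red and WT mice in blue. All 4 KO bars exceed the WT bars on the left; KO mice 2 and 4 are lowest in the middle and on the right.

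The promoters of these genes were also described by their sequence. RefSeq windows (build GRCm38.p6) from 250 bases before to 50 bases after the start were at hand for 61 of the 80 genes. The sequence CCGGAA, the core bound by ETS family factors, was found on either strand in 34 of 61 genes (55.7%), against 16.7% of 27025 genes in the same table. The pyrimidine sequence CTTTCC was found anywhere in the window on the coding strand in 24 of 61 (39.3%), against 16.01%. Most of the window lies before the start, so this is not the share of mRNAs that begin with a pyrimidine run. TATAAA on the coding strand was found in 6 of 61 (9.84%), against 9.77%, and CCATCTT, the core bound by YY1, on either strand in 10 of 61 (16.4%), against 7.28%. These matches are descriptions of letters in a window, and their relation to the fold changes was not tested. The genes they are set against were not chosen by expression or GC content. The stretches below run from 70 bases before to 25 bases after the start, in the direction of transcription, with CCGGAA in either orientation (read as TTCCGG on the opposite strand) and CTTTCC in capitals. They show the called gene, a gene in which the capitals of both motifs overlap, the gene next in the test, and a pair of paralogues. Rpl22 has a further window in the table, whose stretch around the start holds neither motif. Their positions are chr12:28635929-28636023 (minus strand) for Rps7, chr3:90213624-90213718 (minus strand) for Rps27, chr7:45128721-45128815 (minus strand) for Rpl13a, chr4:152325656-152325750 (plus strand) for Rpl22 and chr3:28805438-28805532 (plus strand) for Rpl22l1.
Rps7: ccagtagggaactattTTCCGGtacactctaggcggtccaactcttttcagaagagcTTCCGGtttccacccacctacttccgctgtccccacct
Rps27: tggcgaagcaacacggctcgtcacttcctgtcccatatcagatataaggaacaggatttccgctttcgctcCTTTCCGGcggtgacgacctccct
Rpl13a: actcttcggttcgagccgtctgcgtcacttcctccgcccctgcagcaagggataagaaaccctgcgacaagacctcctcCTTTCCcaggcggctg
Rpl22: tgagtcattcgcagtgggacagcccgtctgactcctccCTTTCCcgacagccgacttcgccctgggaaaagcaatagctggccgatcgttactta
Rpl22l1: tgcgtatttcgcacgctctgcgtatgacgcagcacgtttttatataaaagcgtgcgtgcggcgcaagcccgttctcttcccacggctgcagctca

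Rps7, a small subunit protein whose gene is among those mutated in Diamond-Blackfan anaemia in humans, was the member that passed the test. It lies at chr12:28630854-28635953 on the minus strand (GENCODE M21, GRCm38; ENSMUSG00000061477). Normalized counts, which are the authors' raw counts divided by a size factor per library, were 2537, 2502, 2505 and 2492 in KO mice, against 2199, 2157, 2293 and 2238 in WT mice. The groups did not overlap, and the means were 2509 ± 19.3 in KO and 2222 ± 57.6 in WT libraries (SD, n = 4 each), a difference of 12.9%. The log2 fold change was 0.17 with a standard error of 0.04 (adjusted p = 0.0438). In the authors' deposited table, whose fold change is WT over KO, Rps7 had a log2 value of -0.18 and an adjusted p of 0.00734. The call did not hold in every setting. The robust prior of edgeR, with which it was made, was chosen after a fit without it had been seen; without it the adjusted p was 0.0607 and no member was called. The adjusted p was 0.188 without KO mice 2 and 4, and between 0.056 and 0.154 when any library but WT mouse 3 was left out. Of the 100-base stretches of its main mRNA, 66.3% also occur in transcripts of another gene, 6 genes in all, so part of its count is uncertain.

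Close behind in the test were 4 genes with all KO libraries above all WT libraries and an adjusted p above 0.05. Rpl13a, a large subunit protein that also silences translation of some mRNAs after interferon, had 3693, 3661, 3635 and 3701 normalized counts in KO mice, against 3439, 3329, 3348 and 3307 in WT mice. Its means were 3673 ± 30.4 in KO and 3356 ± 58.1 in WT libraries, with a log2 fold change of 0.13 (SE 0.04, adjusted p = 0.131). Its spread within groups, an SD of 0.02 on the log2 CPM scale, was the smallest of the 80 genes. In the authors' deposited table its adjusted p was 0.0123, and Rps7 and Rpl13a were the 2 of 89 rows below 0.05 there, beside 0.603% of 14259 genes called higher in KO and 1.09% called lower in that table. Rpl13a holds several small nucleolar RNA genes in its introns and overlaps Gm45713 on the same strand.

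Rpl37a, a zinc-binding large subunit protein, had 1882, 1864, 1971 and 1829 normalized counts in KO mice, against 1663, 1769.9, 1766 and 1719.6 in WT mice (adjusted p = 0.226). Every KO library exceeded every WT library, by a narrow margin. Rps24, like Rps7 a gene of the Diamond-Blackfan group in humans, had 3807, 3642, 3900.2 and 3533 in KO mice, against 3351, 3476, 3481 and 3389 in WT mice (adjusted p = 0.229). Rps3a1, a small subunit protein near the mRNA exit, had 4744, 4506, 4862 and 4641 in KO mice, against 4396, 4216, 4456 and 4282 in WT mice (adjusted p = 0.237). The log2 fold changes of these genes were 0.11 to 0.13, each with a standard error of 0.04.

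Among the proteins with roles beyond the core, none was called. Rplp0, Rplp1 and Rplp2 form the stalk of the large subunit that recruits translation factors. Rplp0 had 7431, 7582, 7639.7 and 7432 normalized counts in KO mice, against 7176, 7400.4, 7389 and 7111 in WT mice (log2 fold change 0.05, SE 0.04, adjusted p = 0.633). Rplp1 had 2749.5, 2732, 2893 and 2774 in KO mice, against 2711, 2707, 2842 and 2726 in WT mice (adjusted p = 0.881). Rplp2 had 2110.4, 2094, 1914 and 1919 in KO mice, against 1919, 2109, 1955 and 1777 in WT mice (adjusted p = 0.759). The groups overlapped in Rplp1 and Rplp2 and lay narrowly apart in Rplp0. Rpsa, which doubles as a laminin receptor, had 5634, 5377, 5707 and 5232 in KO mice, against 5086, 5219, 5224 and 5056 in WT mice (adjusted p = 0.348).

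Rpl5 and Rpl11 bind MDM2 when ribosome assembly is disturbed and thereby stabilise p53. Rpl5 had 4126, 4186, 4357 and 4330.1 normalized counts in KO mice, against 4041, 3662, 4251 and 3871 in WT mice (log2 fold change 0.10, SE 0.05, adjusted p = 0.351). Rpl11 had 2213, 2103, 2119.7 and 2083 in KO mice, against 2051, 2021, 2009 and 1925 in WT mice (log2 fold change 0.09, SE 0.04, adjusted p = 0.403). The groups overlapped in Rpl5, where WT mouse 3 stood within the KO range, and did not overlap in Rpl11. At an unadjusted p under 0.05, 1 of the 10 p53 genes listed was higher and 2 were lower. At that threshold 6.11% of all genes tested were higher and 13% differed in either direction. Of the 10 p53 genes, 6 were positive, with a median log2 fold change of 0.03, and 0 were called. The one with the smallest p, the cell cycle inhibitor Cdkn1a, had 167, 151, 158 and 154 normalized counts in KO mice, against 45.0, 79.5, 65.2 and 123 in WT mice (log2 fold change 1.03, SE 0.23, adjusted p = 0.078).

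Rps6 is the substrate of the S6 kinases downstream of mTORC1. Its normalized counts were 3731, 3724, 3733 and 3738 in KO mice, against 3836, 3506, 3658 and 3658 in WT mice (log2 fold change 0.03, SE 0.04, adjusted p = 0.849). The KO libraries fell inside the WT range. Rps19, the gene most often mutated in Diamond-Blackfan anaemia in humans, had 1751, 1642, 1606 and 1615 in KO mice, against 1569, 1548, 1689 and 1555 in WT mice (adjusted p = 0.67), and the groups overlapped.

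**Figure D4:**
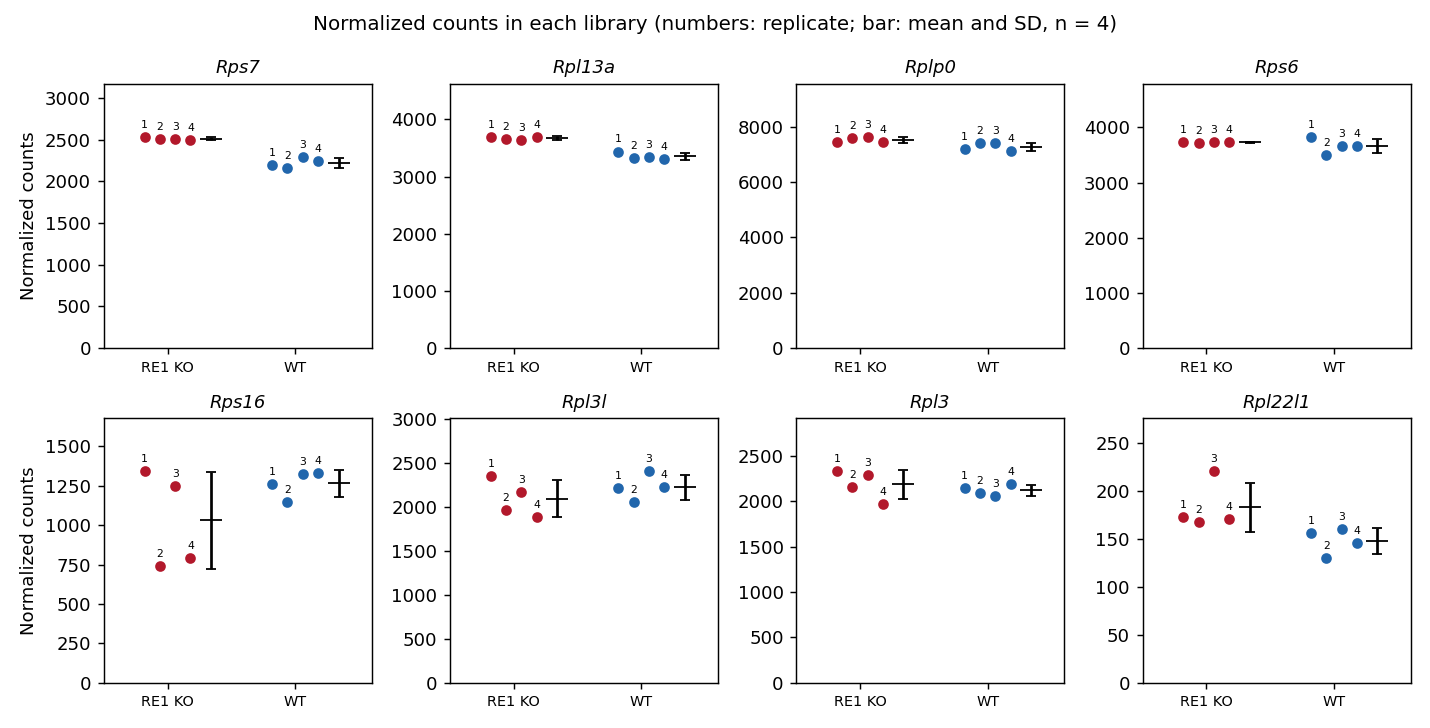
Normalized counts of Rps7, Rpl13a, Rplp0, Rps6, Rps16, Rpl3l, Rpl3 and Rpl22l1 in each library (vertical axes from 0; points numbered by replicate), RE1 KO left of WT, with the mean and SD of 4 libraries beside each group. Rps7 and Rpl13a are apart without overlap, Rps6 and Rplp0 are nearly level, and Rps16 is low in KO mice 2 and 4.

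Rps16 had the lowest log2 fold change of all members without being called. The small subunit protein, encoded at chr7:28350652-28353155 on the plus strand, had 1343, 740.4, 1248 and 789.9 normalized counts in KO mice, against 1261, 1149, 1323 and 1329 in WT mice. KO mice 2 and 4 were below every WT mouse, KO mouse 3 was within the WT range and KO mouse 1 just above it, for a log2 fold change of -0.31 (SE 0.22, adjusted p = 0.621). The low pair are the libraries with the least mitochondrial rRNA. Without them the log2 fold change was 0.03 (SE 0.07, adjusted p = 0.914), a rise that leaving out the lowest KO libraries brings in any case. With the mitochondrial rRNA share as a covariate it was 0.09 (SE 0.08, adjusted p = 0.716). What part these libraries' RNA composition has in the low value was not tested.

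The other members with the smallest p below 0 stayed close to 0. Rpl3l, treated with its paralogue further on, had a log2 fold change of -0.09 (SE 0.07, adjusted p = 0.607), which turned to 0.02 without KO mice 2 and 4, its lowest libraries, and to 0.07 with the mitochondrial rRNA covariate. Rps10, a small subunit protein, had 1863, 1598, 1867 and 1609 normalized counts in KO mice, against 1795, 1683, 1868 and 1715 in WT mice (adjusted p = 0.885). Rps29, a zinc-binding small subunit protein, had 2919, 2721, 3105 and 2738 in KO mice, against 2925, 2873, 2969.9 and 2850.1 in WT mice (adjusted p = 0.914). In both genes KO mice 2 and 4 were again the lower pair, and without them the log2 fold changes were 0.08 for Rps10 and 0.05 for Rps29. Leaving out the lowest KO libraries of a gene raises its fold change in any case, so these rises carry no information about a cause. Rpl24, which bridges the subunits, had 317, 375, 446 and 443 in KO mice, against 433, 419.9, 397 and 380.1 in WT mice (adjusted p = 0.903). Rpl34, a large subunit protein, had 687, 695, 619.9 and 622 in KO mice, against 644, 678, 704 and 642 in WT mice (adjusted p = 0.919). With the 2 low-rRNA libraries left out, 87 of the 89 rows were positive, with a median of 0.09, against 81 and a median of 0.07 with all libraries.

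Some ribosomal proteins have a paralogue with a tissue preference, and the ratio of the paralogues within a library does not depend on scaling. Rpl3l is made in striated muscle in place of Rpl3. Rpl3l had 2358, 1964, 2174 and 1893 normalized counts in KO mice, against 2217, 2057, 2409.7 and 2229.6 in WT mice. Rpl3 had 2331, 2154, 2289.8 and 1969.7 in KO mice, against 2149, 2089, 2058 and 2195 in WT mice (adjusted p = 0.802). The ratio of Rpl3l to Rpl3 per kilobase was 0.943 in KO and 1.03 in WT libraries. It is uncertain, because 79.4% of the stretches of Rpl3 also occur in 7 other genes, while no stretch of Rpl3l is shared. The log2 ratio of counts was 0.02, -0.13, -0.07 and -0.06 in KO mice, against 0.04, -0.02, 0.23 and 0.02 in WT mice. The two-sided exact permutation test over 70 assignments gave p = 0.0571, or 0.0857 adjusted over the 3 pairs, and the smallest p it allows is 0.0286. The difference in the mean log2 ratio, KO minus WT, was -0.13, and -0.08 without WT mouse 3 (exact permutation p = 0.114).

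Rpl22l1, a paralogue of Rpl22 that Rpl22 protein is known to hold down, had the largest log2 fold change of the 80 genes at a low level. It lies at chr3:28805436-28807424 on the plus strand and had 172, 167, 220.2 and 170.5 normalized counts in KO mice, against 156, 129.5, 159.7 and 145 in WT mice. The log2 fold change was 0.30 (SE 0.11, adjusted p = 0.242), and KO mouse 3 was far above the other KO mice. It was 0.20 without KO mouse 3 and 0.49 with the mitochondrial rRNA covariate. Rpl22, at chr4:152325742-152334071 and 4.34 megabases beyond Nppb, had 1590.5, 1523, 1552 and 1546 in KO mice, against 1516, 1485, 1518 and 1452 in WT mice (log2 fold change 0.05, SE 0.04, adjusted p = 0.64). The ratio of Rpl22l1 to Rpl22 was 0.108, 0.110, 0.142 and 0.110 in KO mice, against 0.103, 0.0872, 0.105 and 0.0999 in WT mice. The groups did not overlap, and the exact permutation p was 0.0286, the smallest possible, or 0.0857 adjusted over the 3 pairs. Without KO mouse 3 the p was 0.0857, without WT mouse 2 it was 0.114, and without WT mouse 4 it was 0.0571. The ratio is uncertain, because 50.8% of the stretches of Rpl22l1 also occur in 2 other genes, while no stretch of Rpl22 is shared.

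Rps27l, a p53 target in human cells, and Rps27 made up the last pair. Rps27l had 415, 425, 396 and 414 normalized counts in KO mice, against 369.9, 438, 365 and 431 in WT mice (adjusted p = 0.873). Rps27 had 2112, 2116, 1999 and 2176 in KO mice, against 2060.2, 1922, 2101 and 2028 in WT mice (adjusted p = 0.685). Their log2 ratio averaged -2.35 ± 0.03 in KO and -2.34 ± 0.19 in WT libraries (exact permutation p = 0.943). This ratio is uncertain too, because 98.4% of the stretches of Rps27 also occur in 2 other genes, while none of Rps27l is shared. Rpl39 could not be set beside Rpl39l, which had 10 counts.

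Levels were compared per kilobase of the main mRNA, as the mean of normalized counts over all 8 libraries. They ran from 133 for Rps2 to 7578 for Rpl41, with a median of 2899 and quartiles of 1870.4 and 3828. Among the highest were Rpl41, which encodes the smallest protein of the ribosome, with 7578, Rps29 with 7404, Rps27 with 5983 and Rplp1 with 5545 normalized counts per kilobase. Rpl41 had 3471, 3446, 3441 and 3291 normalized counts in KO mice, against 3062, 3360.3, 3307 and 3115 in WT mice (adjusted p = 0.413), with overlap.

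The 5 lowest were Rps2 with 133, Rpl22l1 with 299, Rps20 with 455, Rpl7l1 with 539 and Rpl24 with 593 normalized counts per kilobase. Rps2, a core protein of the small subunit, had 153, 159, 152 and 97.7 normalized counts in KO mice, against 117, 118, 132 and 131 in WT mice (log2 fold change 0.18, SE 0.14, adjusted p = 0.62). The log2 fold change was 0.10 without KO mouse 2, 0.32 without KO mouse 4, 0.30 without both and 0.34 with the mitochondrial rRNA covariate. KO mouse 4 was below every WT mouse and the other KO mice above them. Stretches of the Rps2 mRNA occur in 36 other genes, and the sources used here do not say how reads that match several genes were counted. Rps20, a small subunit protein, had 1739, 1772, 1767 and 1745 in KO mice, against 1725, 1590.4, 1595 and 1554 in WT mice (adjusted p = 0.274), without overlap; the annotated main mRNA used for its level is 3706 bases long, which lowers its value per kilobase. Rpl7l1, a paralogue of Rpl7, had 808, 648, 718 and 663 in KO mice, against 679, 712, 723 and 702 in WT mice (adjusted p = 0.992).

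**Figure D5:**
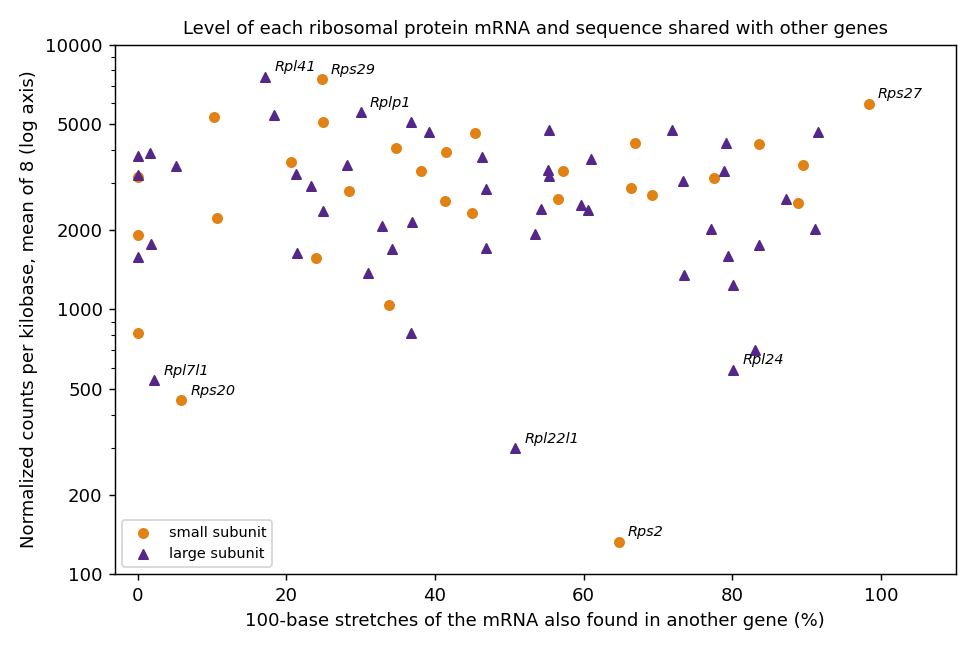
Level of 77 of the 80 ribosomal protein mRNAs in normalized counts per kilobase, mean of 8 libraries (vertical log axis), against the percent of its 100-base stretches found in another gene's transcripts (horizontal axis), with circles for the small and triangles for the large subunit and some of the highest and the 5 lowest named. Levels run from 133 for Rps2 to 7578 for Rpl41, and both high and low levels occur at low and at high sharing.

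The members shared features that the naming rule did not use. Their main mRNAs had a median length of 740 bases, against 2429 over all genes tested, and a median GC content of 51.7%, against 50.2%. Of the 80 genes, 63 had at least 20% of stretches in common with another gene, 35 at least 50% and 3 at least 90%, which were Rps27, Rpl10 and Rpl5. In 7 genes no stretch was shared, among them Rps3, Rps21, Rps27l, Rpl3l, Rpl22 and Rpl32. The 9 copy rows held large counts. The copy of Rpl41 on chromosome 14 had a mean of 2509 ± 63.8 normalized counts in KO and 2309 ± 108 in WT libraries. The copy Rps3a2 had 4007 ± 154 in KO and 3697 ± 115 in WT libraries. Some copy rows nearly repeated the counts of the parent. The Rpl27 copy had 864, 2102, 1476 and 1423 raw counts in KO mice and 1784, 1379, 1133 and 1265 in WT mice. Rpl27 itself had 875, 2142, 1491 and 1448 in KO mice and 1814, 1404, 1140 and 1288 in WT mice. Whether the same reads were counted in both rows was not tested. None of the 9 was called and 8 had a positive log2 fold change. Of their stretches, 29.5% to 100% also occur in another gene, which may be the parent or another copy. The share was 29.5% in the Rpl41 copy, 31.6% in Rps3a3, 68.5% in the Rpl35 copy and 78.6% in Rps3a2. It was 100% in the copies of Rpl27 and Rps12 and in the Rpl12 copy on chromosome 10. How many of the reads belong to each row is therefore uncertain. The Rpl35 copy averaged 1752 ± 102 normalized counts in KO and 1591 ± 21.03 in WT libraries, more than Rpl35 itself with 682 ± 36.0 in KO and 648 ± 36.2 in WT libraries. Across the 80 genes the Spearman correlation of the log2 fold change was 0.10 with mRNA length, -0.17 with GC content and 0.12 with the percent of stretches shared; genes are not independent replicates. When GC content and length were adjusted for in each library, the median over the 89 rows was 0.06, against 0.07, and 77 rows were positive.

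Genes that work beside the ribosomal proteins were counted by list. The other core ribosomal components, among them Gnb2l1 (RACK1), Fau and Rpl36al, had 5 rows tested, 0 called and a median log2 fold change of 0.06. Of 37 initiation factor genes 0 were called (median 0.03), of 21 rows of genes outside the naming rule with pyrimidine-run mRNAs, some of them also in the other lists, 0 (median 0.02), of 71 ribosome biogenesis genes 0 (median -0.03), of 9 ribosomal protein chaperones 0 (median 0.02) and of 4 small nucleolar RNA host genes 0 (median 0.01). At an unadjusted p under 0.05, 2 of the 21 pyrimidine-run rows were higher and 1 lower, and the lower one had the smallest p. At that threshold 6.11% of all genes tested were higher and 13% differed in either direction. Tpt1, a pyrimidine-run mRNA on the higher side, had 9306, 9110.0, 9652 and 9017 normalized counts in KO mice, against 8412, 8742, 8423 and 8532 in WT mice (log2 fold change 0.12, SE 0.04, adjusted p = 0.173). Ncl, which encodes the nucleolar protein nucleolin, had 1986, 1638, 1870.3 and 1700.5 in KO mice, against 2213, 1954, 2262 and 1985 in WT mice (log2 fold change -0.23, SE 0.06, adjusted p = 0.107).

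Regulators of translation and growth outside the ribosome included genes that passed the test. Of 9 elongation genes, 0 were called higher and 1 lower: Eef2k, the kinase that inhibits elongation factor eEF2, fell to 813, 758, 775 and 815 normalized counts in KO mice, against 949.6, 996, 945 and 842 in WT mice (log2 fold change -0.24, SE 0.06, adjusted p = 0.048). Of 24 mTOR and MYC pathway genes tested, 1 was called higher and 1 lower, beside 0.375% and 0.689% of all genes tested. The list had 7 of 24 positive, where 50% of all genes were, and a median log2 fold change of -0.05. At an unadjusted p under 0.05, 2 were higher and 8 lower. Over all genes tested, 6.11% were higher and 13% differed in either direction at that threshold. Ddit4, an inhibitor of mTORC1, rose to 536, 356, 381 and 294 in KO mice, against 183, 134, 162 and 184 in WT mice (log2 fold change 1.21, SE 0.18, adjusted p = 0.023). Max, the partner of MYC, fell to 338, 308, 338 and 375 in KO mice, against 441, 438, 468 and 424 in WT mice (log2 fold change -0.39, SE 0.07, adjusted p = 0.0155). None of these groups overlapped. Whether they bear on the ribosomal protein mRNAs was not tested.

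The small positive shift was also present in other lists of nuclear genes, and no difference between lists was tested. Of 76 mitochondrial ribosomal protein genes tested, 64 lay above 0, the median log2 fold change being 0.07, and 0 were called. Of 92 nuclear genes of the respiratory chain, 87 lay above 0 (median 0.07) and 0 were called. At an unadjusted p under 0.05, 9 of the 76 and 22 of the 92 were higher and 0 lower, where 6.11% of all genes tested were higher. All 8 ventricular cardiomyocyte markers were positive too, with a median of 0.07 and 0 called. Endothelial markers went the other way, 0 of 6 being positive, with a median of -0.10. Summed fibroblast markers were 662 to 678 CPM in KO and 583 to 670 CPM in WT libraries, with 6 of 6 positive, a median log2 fold change of 0.14 and Pdgfra the 1 called. Pdgfra had 1433, 1576, 1501 and 1792 normalized counts in KO mice, against 1204, 1261, 1038 and 1219 in WT mice (log2 fold change 0.41, SE 0.07, adjusted p = 0.013). Mesothelial markers summed to 9.61 to 28.0 CPM in KO and 3.95 to 14.8 CPM in WT libraries, with 6 of 6 positive and 0 called. Red blood cell markers were positive in 5 of 5, with a median of 0.19, skeletal muscle markers in 3 of 3, with a median of 0.07, the 1 atrial marker tested was positive, and macrophage markers were positive in 2 of 5, with a median of -0.06; 0 of these were called. The part of cell composition in the ribosomal protein values was not tested.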

How the data were processed

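Ribosomal protein mRNAs were measured by RNA-seq of left ventricle, from 900 ng of total RNA with a stranded kit and paired reads of 125 bases, per the labels' protocols. The submitters' processing notes name STAR, DESeq2 and the build mm10; neither the counting program nor its strand setting is named in them. Raw counts per gene were deposited, and a normalized signal that equals the counts divided by 1 size factor per library. The authors also deposited a table of log2 fold changes (WT over KO) with p-values. Counts were tested here with edgeR 4.0.16 (R 4.3.3, quasi-likelihood F test, TMM, filterByExpr, robust prior, group as the only term), Benjamini-Hochberg adjusted over 16551 genes, two-sided. The fit was checked on simulated data, where it recovered 26% of genes changed 1.25-fold and 86% of those changed 1.5-fold. Smaller changes, such as the median difference of 5.02% of the 80 genes, were not simulated. A gene that was not called may therefore still differ by a small amount. The robust prior was kept after a fit without it had been run as well, because it gives the 62 and 114 calls of an earlier account of these data. Symbols are the deposited ones for 52 rows and those of GENCODE M21 by gene ID for 37. Main mRNA length is that of the shortest principal coding transcript. DESeq2 1.42.0 and limma 3.58.1 (voom) were alternatives. The members, lists and motifs were chosen with earlier results of these data known. Members described by library are the called ones, the 6 with the smallest p in each direction, the 5 highest and lowest per kilobase, paralogue pairs, outlying fold changes and members with named roles; from each list the called genes and otherwise up to 2 with the smallest p could be named. Some genes are not reported here by name or drawn by gene; they stay in the counts and medians.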

Additional observations from a re-analysis of the deposited data

Results flagged for a closer look

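In groups of 4 libraries, 6 of 66 sets of values had 1 library whose gap to the nearest other exceeded Dixon's 95% limit as a share of the group's range; chance alone gives about 1 in 20. Among KO libraries, Rpl22l1 had a far value of 220.2 normalized counts in KO mouse 3 (gap ratio 0.905), and so did the log2 ratio of Rpl22l1 to Rpl22, at -2.82 in the same mouse (0.933). In KO libraries too, Rpl41 was far at 3291 (0.835) and Rps2 at 97.7 (0.893). Among WT libraries, Rps19 was far at 1689 (0.852) and Rplp1 at 2842 (0.862), both in WT mouse 3. No far value lay in KO mouse 1 or 2 or in WT mouse 1, 2 or 4 in these sets, and all of these genes were short of the threshold in the test.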

How the results depend on the processing

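The count of 1 ribosomal protein gene called higher stayed at 1 with DESeq2 size factors, upper-quartile or total scaling, no filter, DESeq2 and limma-voom. It was 0 with a replicate block, the mitochondrial rRNA covariate, GC and length offsets, the non-robust prior and the fit without KO mice 2 and 4. The remaining settings only selected from the main fit, so they cannot show whether the call holds. Floors of 100 or 10000 counts, a threshold of 0.1 and the 80 genes alone could not drop Rps7, and gave 1. Rows with under 20% of stretches shared leave out Rps7, at 66.3%, in advance, and gave 0. The robust prior of the main fit was itself chosen after the fit without it had been seen; the fit without KO mice 2 and 4 and the 80 genes alone were also added after seeing the data. Leaving out 1 library at a time gave 0 to 1. No setting called a member lower. The median log2 fold change over the 89 rows was 0.07 and ranged from 0.06 with GC and length offsets to 0.10 with the mitochondrial rRNA covariate; the cause was not tested. The block was not used in the main fit because same-numbered libraries did not deviate together (correlations of -0.01, 0.04, -0.12 and 0.005 over genes); with it the median was 0.07 and the adjusted p of Rps7 0.0763. Leave-one-out values were 0.15 to 0.28 for the difference in the log2 ratio of Rpl22l1 to Rpl22, against 0.24. Rps7 was called in 8 of 20 fits, with an adjusted p of 0.00906 to 0.188. Rps2 and Rpl22l1 had the lowest counts of the 80 genes.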
